A study of Mus musculus with 30 samples.

Results

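The cytochromes P450 of families 1 to 3 were followed in mouse liver across 4 genotypes and 2 feeding regimens. The members are the genes whose symbol is Cyp1a, Cyp1b, Cyp2 with any subfamily letter or Cyp3a followed by a number and whose probe set carries no other symbol. This rule gave 53 of the 18820 genes measured, in 16 subfamilies, with 13 genes in Cyp2c, 9 in Cyp2d, 6 in Cyp2j, 6 in Cyp3a, 5 in Cyp2b, 3 in Cyp2a, 2 in Cyp1a and 1 in each of Cyp1b, 2e, 2f, 2g, 2r, 2s, 2t, 2u and 2w. The rule used gene names alone and no measured value. A gene with several probe sets is given on the one with the highest mean over all 30 arrays, which concerned Cyp1b1 alone. A further 5 probe sets were left out because they carry the symbols of several P450 genes, among them those shared by Cyp2c40, Cyp2c67, Cyp2c68 and Cyp2c69, by Cyp2a4 and Cyp2a5, and by Cyp3a11, Cyp3a41a, Cyp3a41b and Cyp3a44.

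RNA from single livers was hybridized to Affymetrix Mouse Gene 1.1 ST arrays, and all values are log2 intensities, so that a difference of 1 is a 2-fold difference in signal. The mice were males of about 8 weeks on a C57BL/6 background and had either a ketogenic diet, very rich in fat and very poor in carbohydrate, for 4 days or no food for 16 h (fasted). They lacked PPARα (PPARα−/−), the fatty acid-activated nuclear receptor, CREB3L3 (CREB3L3−/−), a transcription factor held in the endoplasmic reticulum membrane of hepatocytes, or both (PPARα/CREB3L3−/−), or were wild-type (WT). Each group holds 4 livers, except the ketogenic and the fasted PPARα−/− groups with 3. The deletions were present in the whole body and from birth. No group on ordinary chow was included, and mice on the ketogenic diet ate freely, so the comparison of the regimens sets a diet against food deprivation. Fewer hepatocytes and less RNA per hepatocyte cannot be told apart in whole liver.

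Cytochromes P450 of families 1 to 3 are heme enzymes of the endoplasmic reticulum that insert 1 oxygen atom into fat-soluble substrates, and the liver holds most of them. They clear drugs and toxicants, and several also oxidize steroids, bile acids, retinoids, vitamin D and polyunsaturated fatty acids. Their transcription depends on liver-enriched factors such as HNF4α and on receptors that sense foreign compounds, namely AhR for family 1, CAR for Cyp2b and PXR for Cyp3a. In the mouse, many Cyp2b, 2c, 2d and 3a genes lie in tandem clusters of close relatives and differ in level between males and females.

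The genotype labels were checked on the arrays. Creb3l3 ranged between 4.29 and 5.36 in all livers labelled as lacking it and between 9.49 and 11.28 in all others. Ppara ranged between 6.62 and 7.95 in ketogenic livers labelled as lacking it, against 8.01 to 10.54 in the other ketogenic livers, and between 7.25 and 9.35, against 9.51 to 10.41, in fasted livers. The labels were thus separated within each regimen, though by a small gap, and Ppara stayed above the array medians in every liver. Which part of the transcript its probe set reads was not examined. The array medians ran between 4.22 and 4.38, and arrays of 1 group correlated at 0.978 to 0.99. Of the 53 members, 36 had a mean above the highest array median in at least 1 group and 17 lay below it in every group. All 53 were kept in the counts, and the 17 are called dim.

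Promoter sequence is shown for 7 members on which the results below turn: 6 whose level was lower in ketogenic CREB3L3−/− livers and Cyp2b10, which had another pattern. Each is the stretch of 250 bases before the RefSeq start site on build GRCm38.p6, with matches to TATAAA (bound by the general factor TBP), CAAAGTCCA (an HNF4α element) and GTTAAT (bound by HNF1 factors), or to their reverse complements, in capitals. Cyp2c29 is at chr19:39286835-39287084, Cyp2c37 at chr19:39992174-39992423 and Cyp2c50 at chr19:40089429-40089678, all on the plus strand. Cyp2c67 is at chr19:39649043-39649292 on the minus strand. Cyp2e1 is at chr7:140763569-140763818 and Cyp2b10 at chr7:25897408-25897657, both on the plus strand, and Cyp3a11 is at chr5:145879855-145880104 on the minus strand.
Cyp2c29: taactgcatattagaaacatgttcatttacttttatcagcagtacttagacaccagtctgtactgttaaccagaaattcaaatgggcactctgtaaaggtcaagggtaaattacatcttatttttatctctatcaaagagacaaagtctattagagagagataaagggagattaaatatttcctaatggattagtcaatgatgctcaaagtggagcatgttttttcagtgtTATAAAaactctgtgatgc
Cyp2c37: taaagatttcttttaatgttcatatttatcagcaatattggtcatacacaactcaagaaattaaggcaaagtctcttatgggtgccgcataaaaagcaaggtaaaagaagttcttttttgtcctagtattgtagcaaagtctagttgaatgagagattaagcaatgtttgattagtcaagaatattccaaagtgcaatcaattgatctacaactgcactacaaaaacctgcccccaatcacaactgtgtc
Cyp2c50: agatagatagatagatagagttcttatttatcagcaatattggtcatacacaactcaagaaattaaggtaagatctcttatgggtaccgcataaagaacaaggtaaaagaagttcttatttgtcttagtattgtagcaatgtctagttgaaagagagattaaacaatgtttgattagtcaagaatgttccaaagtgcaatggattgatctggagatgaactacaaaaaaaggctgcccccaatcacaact
Cyp2c67: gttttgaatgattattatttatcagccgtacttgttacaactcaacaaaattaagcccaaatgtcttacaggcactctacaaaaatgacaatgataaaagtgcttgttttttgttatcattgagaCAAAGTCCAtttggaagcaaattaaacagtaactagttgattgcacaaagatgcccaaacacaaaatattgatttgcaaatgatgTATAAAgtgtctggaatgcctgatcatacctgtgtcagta
Cyp2e1: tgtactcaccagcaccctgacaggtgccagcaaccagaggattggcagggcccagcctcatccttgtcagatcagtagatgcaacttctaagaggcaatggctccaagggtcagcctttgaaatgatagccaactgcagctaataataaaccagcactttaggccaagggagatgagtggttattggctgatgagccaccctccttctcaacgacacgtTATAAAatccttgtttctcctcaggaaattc
Cyp3a11: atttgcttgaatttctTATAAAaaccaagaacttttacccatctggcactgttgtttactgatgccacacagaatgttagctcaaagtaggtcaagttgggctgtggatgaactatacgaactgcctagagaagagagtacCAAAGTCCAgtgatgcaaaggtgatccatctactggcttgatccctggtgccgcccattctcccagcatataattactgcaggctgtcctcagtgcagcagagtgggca
Cyp2b10: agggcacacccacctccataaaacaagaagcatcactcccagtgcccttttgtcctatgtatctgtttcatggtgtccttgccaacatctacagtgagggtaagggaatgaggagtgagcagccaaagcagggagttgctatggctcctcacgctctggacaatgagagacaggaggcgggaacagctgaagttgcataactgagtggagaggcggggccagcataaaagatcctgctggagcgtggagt

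The RefSeq table held a promoter for 45 of the 53 members. TATAAA was found in 22 of these 45, against 12.4% of all 32851 promoters of the same length, and CAAAGTCCA in 6, against 0.384%. The 6 are Cyp2c65, Cyp2c67, Cyp2c68, Cyp2c70, Cyp3a11 and Cyp3a16. AGGTCA, the core motif of nuclear receptors, was found in 14 (14.0% of all promoters), TTGCNNAA, bound by C/EBP factors, in 10 (9.56%), GCGTG, the core of AhR sites, in 8 (28.2%) and GTTAAT in 3 (6.43%). The cAMP response element TGACGTCA (1.55%), the D-box TTATGTAA (0.819%) and direct repeats of AGGTCA with a gap of 1 base (DR1, 0.0335%) or 4 bases (DR4, 0.0152%) were in none of the 45. Matches were sought on both strands, and DR1 and DR4 contain AGGTCA. Members called lower in ketogenic CREB3L3−/− livers had TATAAA in 14 of 23 and CAAAGTCCA in 3 of 23, and the other members in 8 of 22 and 3 of 22. Of the 55 pairs of Cyp2c promoters, compared at their best shift, 5 matched at more than 50% of bases. These were Cyp2c37 and Cyp2c50 (199 of 248 bases, 80.2%), Cyp2c65 and Cyp2c66 (171 of 238, 71.8%), Cyp2c29 and Cyp2c39 (65.3%), Cyp2c29 and Cyp2c38 (55.4%) and Cyp2c38 and Cyp2c39 (53.2%). The other 50 pairs lay between 31.2% and 42.0%. Whether the probe sets of such relatives read each other's transcripts was not tested.

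The widest change was seen in CREB3L3−/− mice on the ketogenic diet. There 29 of 53 members (54.7%) were lower than in WT and 0 higher, whereas 28.7% of all genes were called in this comparison, 11.9% lower and 16.7% higher. Genes counted as called had an unadjusted P under 0.001 and differed by more than 1.2-fold in a limma fit over all 30 arrays. The P limit is that of the methods and the fold limit that of the study's figure legends. The median log2 difference was -1.38 over the members and -0.05 over all genes. The 29 comprise 9 of 13 Cyp2c genes, 7 of 9 Cyp2d, 5 of 6 Cyp3a, 2 of 3 Cyp2a, 2 of 6 Cyp2j, 1 of 2 Cyp1a and the single genes Cyp2e1, Cyp2f2 and Cyp2u1. None of the 5 Cyp2b genes was called, nor were Cyp1b1, Cyp2g1, Cyp2r1, Cyp2s1, Cyp2t4 and Cyp2w1. In 28 of the 29 the groups did not overlap, Cyp2d34 being the exception, and Cyp3a57 was the only dim gene among them. The genes were called on these same livers, so the missing overlap describes the calls and is no further support for them.

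**Figure D1:**
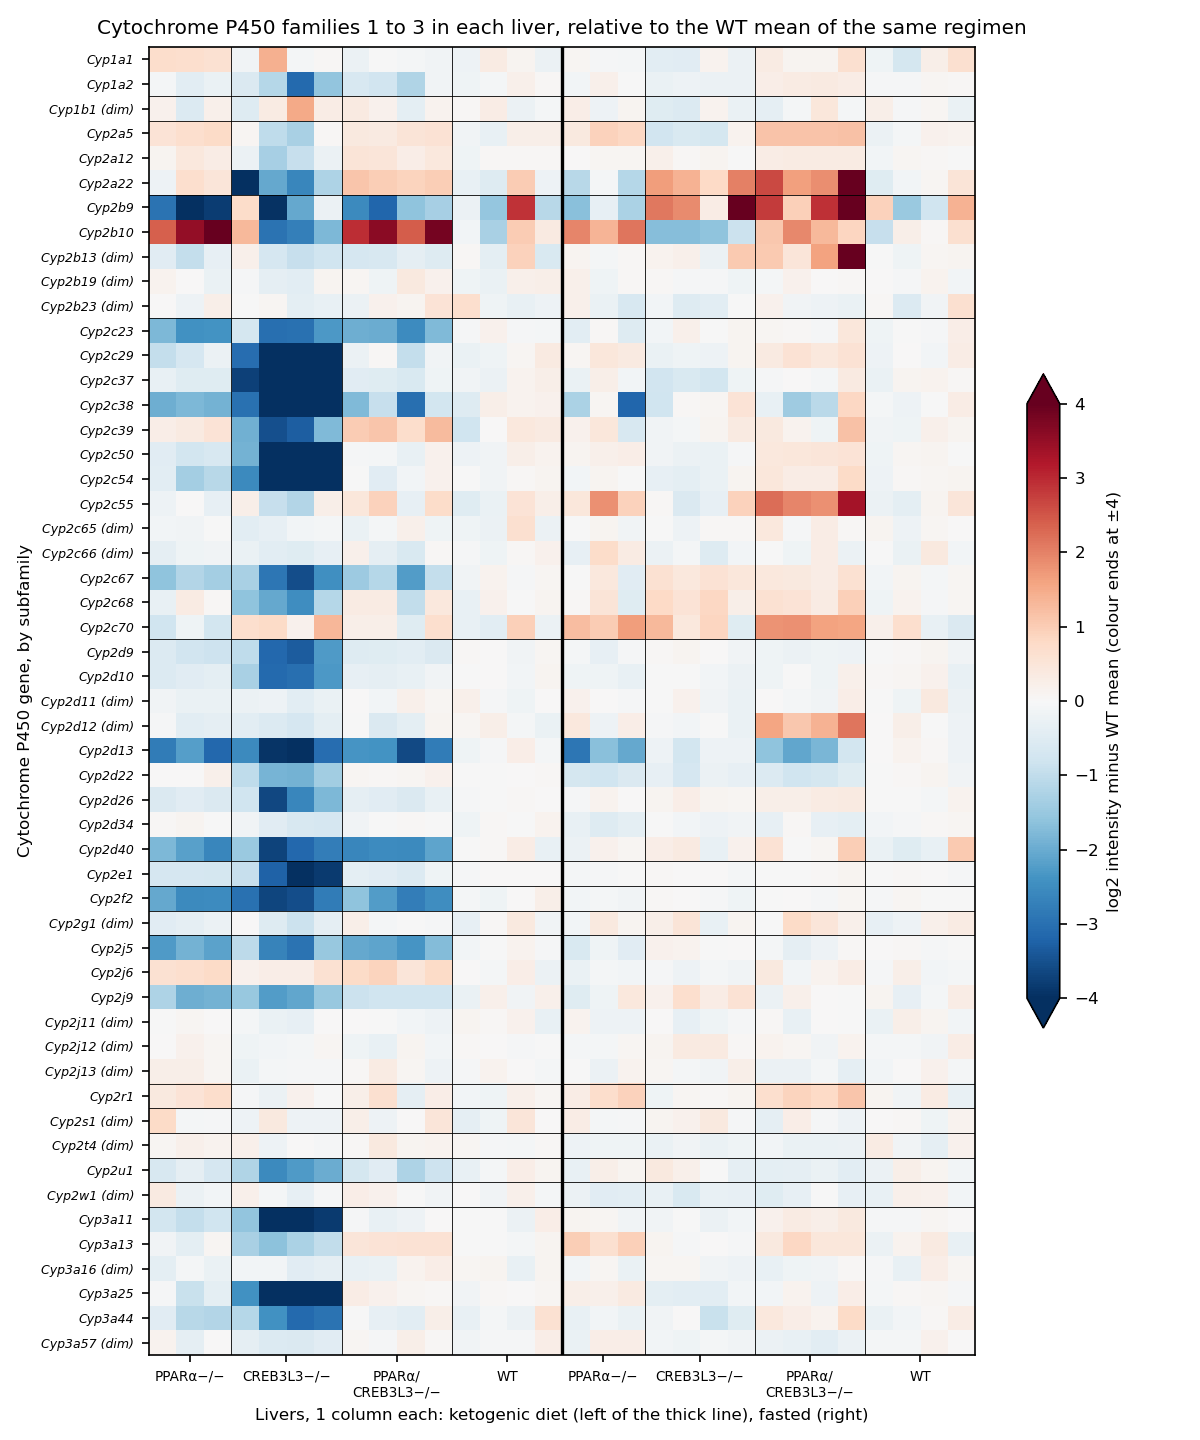
Log2 intensity of each of the 53 members (rows, by subfamily) in each of the 30 livers (columns) minus the WT mean of the same regimen, with ketogenic livers left of the thick line and fasted livers right of it. Blue is lower and red higher than WT, the colour ends at 4 log2 units either way, and dim genes are marked. The ketogenic CREB3L3−/− columns are blue over most of Cyp2c, Cyp2d and Cyp3a, and most cells of fasted livers are pale.

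The steepest falls were in the Cyp2c genes on chromosome 19, whose enzymes oxidize arachidonic and linoleic acid besides drugs. Cyp2c29, an arachidonic acid epoxygenase, was at 8.91, 5.70, 5.84 and 5.85 in ketogenic CREB3L3−/− livers, against 11.70, 11.77, 12.03 and 12.29 in ketogenic WT livers. All 4 CREB3L3−/− livers lay below all WT livers, and 1 of them, replicate 1, lay about 3 units above the other three. The log2 fold change was -5.37 ± 0.41 (SE), a 41.4-fold lower signal (limma, adjusted p = 8.09e-11). Cyp2c37 was at 7.48, 6.19, 4.83 and 4.07 in CREB3L3−/− livers, against 11.06, 10.96, 11.35 and 11.43 in WT livers. Its log2 fold change was -5.56 ± 0.39 (limma, adjusted p = 1.56e-11), again without overlap. Cyp2c38 was at 6.52, 3.24, 2.78 and 3.14, against 8.97, 9.72, 9.65 and 9.66 in WT livers. Of the CREB3L3−/− livers only replicate 1 stayed above the array medians for this gene, and the log2 fold change was -5.58 ± 0.66 (limma, adjusted p = 1.24e-07). Cyp2c54 was at 7.75, 5.70, 4.38 and 3.78, against 10.27, 10.16, 10.34 and 10.39 in WT livers, a log2 fold change of -4.89 ± 0.45 (limma, adjusted p = 1.84e-09). The other Cyp2c genes called lower were Cyp2c50, Cyp2c39, Cyp2c67, Cyp2c23 and Cyp2c68, at log2 fold changes of -4.47 to -1.83. The 4 not called were Cyp2c55, the dim genes Cyp2c65 and Cyp2c66, and Cyp2c70, the enzyme that makes muricholic bile acids in the mouse. Cyp2c70 was at 10.26, 10.35, 9.74 and 10.90 in CREB3L3−/− livers, against 9.28, 9.14, 10.54 and 9.33 in WT livers, and these ranges overlapped (log2 difference 0.74, 95% interval 0.05 to 1.43).

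In the Cyp3a subfamily, whose enzymes metabolize many drugs as well as steroids and bile acids, 5 of 6 genes were lower. Cyp3a25 was at 9.41, 5.41, 6.82 and 6.69 in ketogenic CREB3L3−/− livers, against 11.69, 11.89, 11.85 and 11.93 in WT livers. Cyp3a11, the main PXR-induced Cyp3a of mouse liver, was at 10.23, 6.96, 7.69 and 7.99, against 11.80, 11.80, 11.59 and 12.07 in WT livers. Neither gene's groups overlapped, and replicate 1 was the highest CREB3L3−/− liver for both. The log2 fold changes were -4.76 ± 0.42 for Cyp3a25 (limma, adjusted p = 1e-09) and -3.60 ± 0.35 for Cyp3a11 (limma, adjusted p = 5e-09). Cyp3a13 was at 8.51, 8.17, 8.54 and 8.84, against 9.80, 9.82, 9.74 and 9.93 in WT livers, a smaller and evenly spread difference of -1.31 ± 0.14.

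Among the single-gene subfamilies, Cyp2e1, which oxidizes ethanol, acetone and acetaminophen, was at 12.13, 9.83, 8.44 and 9.22 in ketogenic CREB3L3−/− livers, against 13.00, 13.08, 13.07 and 13.09 in WT livers. WT livers differed by less than 0.1 units, while the CREB3L3−/− livers spread over more than 3 units, all of them below WT. The log2 fold change was -3.16 ± 0.39 (limma, adjusted p = 2.39e-07). Cyp2f2, which activates naphthalene and is found around the portal vein in liver, was at 9.50, 8.81, 8.95 and 9.68, against 12.40, 12.32, 12.51 and 12.72 in WT livers. Its livers spread over less than 1 unit, and the log2 fold change was -3.25 ± 0.18 (limma, adjusted p = 1.54e-13). Cyp2u1, a fatty acid hydroxylase, was at 7.10, 5.75, 6.04 and 6.33, against 8.02, 8.23, 8.57 and 8.41 in WT livers (-2.00 ± 0.21). Cyp1a2, the main liver enzyme of family 1 and the caffeine oxidase, was at 11.42, 10.83, 8.88 and 10.40, against 11.81, 11.91, 12.19 and 12.04 in WT livers (-1.61 ± 0.29, limma, adjusted p = 7.44e-05). Cyp1a1, the AhR-induced gene next to it on chromosome 9, was near the array medians in every group and was not called (log2 difference 0.31, 95% interval -0.24 to 0.85).

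Of the Cyp2d genes, the mouse relatives of human CYP2D6, all 7 that were not dim were lower, at log2 fold changes of -3.40 to -0.47. The largest was that of Cyp2d13, at 7.87, 6.51, 6.36 and 7.40 in ketogenic CREB3L3−/− livers, against 10.27, 10.40, 10.70 and 10.37 in WT livers (-3.40 ± 0.32, limma, adjusted p = 2.94e-09). Cyp2d40 was at 6.82, 4.61, 5.17 and 5.53, against 8.29, 8.34, 8.59 and 8.01 in WT livers (-2.77 ± 0.34). Cyp2d22 was at 9.83, 8.98, 8.93 and 9.44, against 10.81, 10.82, 10.84 and 10.88 in WT livers (-1.54 ± 0.13). For all 3 genes every CREB3L3−/− liver lay below every WT liver. Cyp2a22 was at 2.88, 5.28, 4.72 and 6.08, against 7.02, 6.80, 8.32 and 7.12 in WT livers (-2.58 ± 0.51, limma, adjusted p = 0.0002), and here replicate 1 was the lowest liver. Cyp2j5, an epoxygenase of liver and kidney, was at 10.35, 8.70, 8.44 and 9.86, against 11.29, 11.38, 11.54 and 11.35 in WT livers (-2.05 ± 0.25).

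**Figure D2:**
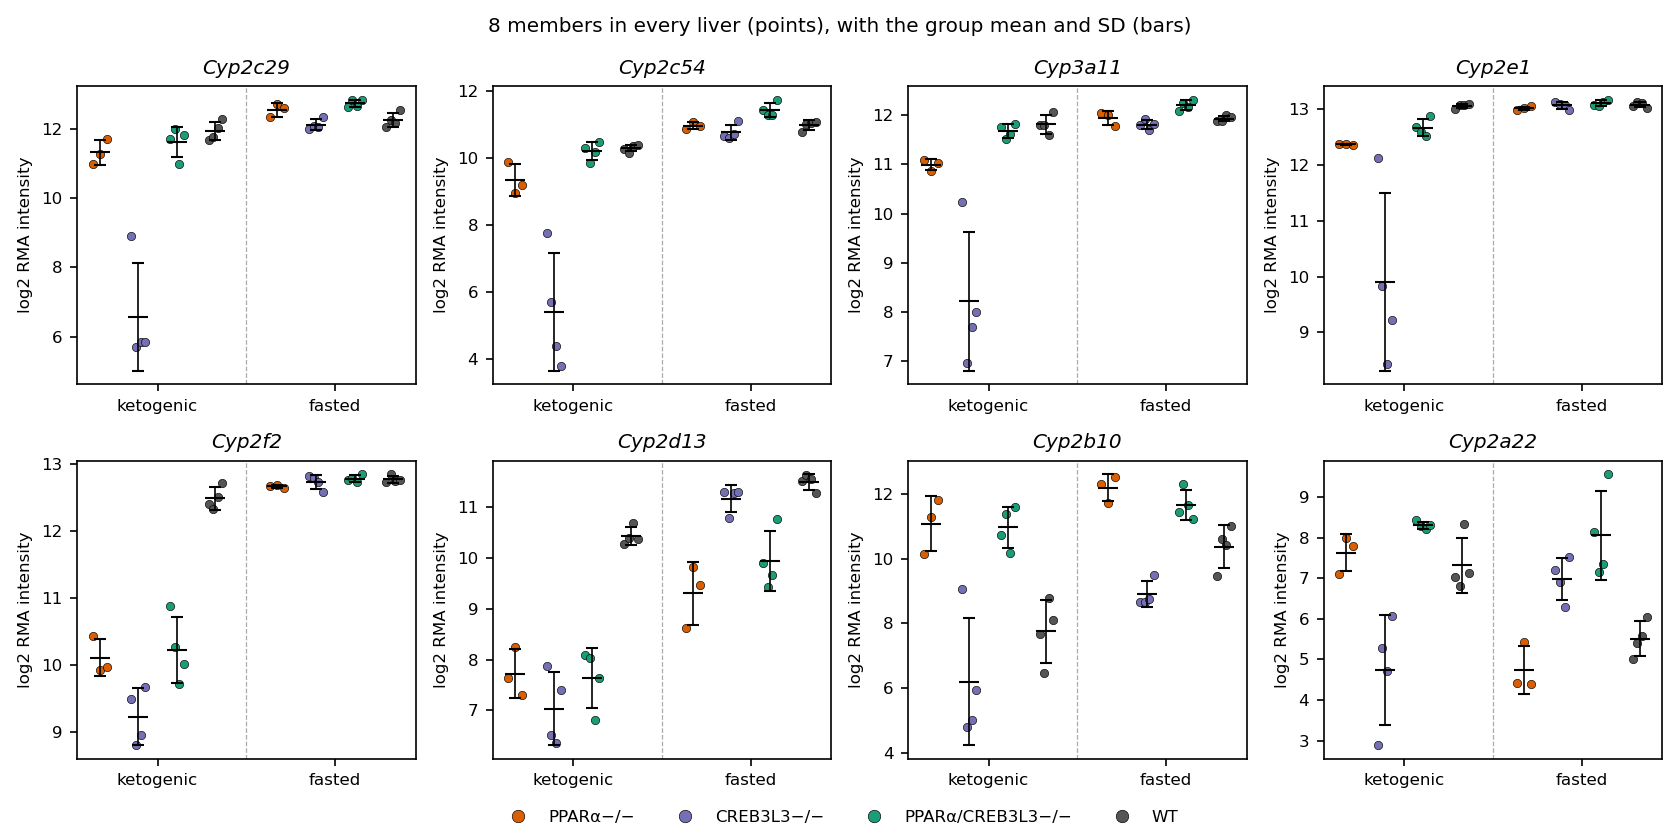
Log2 RMA intensity (y axis) of 8 members in each liver of the 8 groups, with points for livers and bars for the group mean and SD. In Cyp2c29, Cyp2c54, Cyp3a11 and Cyp2e1 only the ketogenic CREB3L3−/− group lies far below the others, in Cyp2f2 and Cyp2d13 all 3 ketogenic knockout groups lie below ketogenic WT, and in Cyp2b10 the ketogenic PPARα−/− and PPARα/CREB3L3−/− groups lie above it.

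The 4 ketogenic CREB3L3−/− livers differed from each other more than the livers of any other group did. The median SD over the 36 members that were not dim was 0.91 in this group and between 0.18 and 0.24 in the other 7, and 28 of the 36 had an SD above 0.5, against 2 to 7 in the others. Of the 29 genes called lower, replicate 1 was the highest CREB3L3−/− liver in 22 and replicate 4 in 7. The median difference from the WT mean over these 29 was -1.31 in replicate 1, -3.10 in replicate 2, -3.12 in replicate 3 and -2.29 in replicate 4, a description with no test, since the genes were picked on the same livers. Replicate 1 lay below every WT liver in 28 of the 29 and the other three in all 29. The shared spread of the fit understates that of this group. It is also raised by these livers in comparisons that leave them out, such as those among fasted livers. Between 27 and 30 members were called with any 1 array of the comparison left out, and 26 were called lower when the ketogenic arrays were fitted alone.

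Other transcripts moved in the same livers. The 12 hepatocyte markers averaged 11.64 to 12.21 per liver in ketogenic CREB3L3−/− mice, against 12.61 to 12.71 in WT mice, and 7 of the 12 were lower. The 16 macrophage markers averaged 8.27 to 8.60, against 7.11 to 7.84 in WT livers, with 9 higher, and the 12 stellate cell markers 7.74 to 8.05, against 6.83 to 7.02, with 7 higher and 1 lower. All 12 mitosis markers were higher, at averages of 7.44 to 8.72, against 3.58 to 4.82 in WT livers. Of 7 cholangiocyte markers 4 were higher, and of 9 neutrophil markers 3, with averages of 3.94 to 6.34 against 3.25 to 4.22. Means below the highest array median were seen for 3 of the 9 neutrophil markers, 2 of the 7 cholangiocyte markers and 0 of the macrophage and stellate cell markers in these livers. The part of cell composition and cell division in the fall of the P450 genes was not tested. Hepatocyte genes of both zones were lower, 7 of 13 pericentral and 6 of 10 periportal ones outside the members, with 1 periportal gene higher (Cdh1, which epithelial cells of the bile ducts also express). Of 12 sinusoidal endothelium markers 3 were higher and 2 lower, and of 13 acute phase proteins 1 was higher and 5 lower.

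Genes that regulate the P450 enzymes or serve them were also measured. Of the 5 measured genes of the AhR, CAR and PXR list, Rxra, the partner of CAR and PXR, was lower in ketogenic CREB3L3−/− livers (-1.08 ± 0.08, limma, adjusted p = 3.54e-11), as was Nr1i2, which encodes PXR (-0.75 ± 0.15, adjusted p = 0.000224). Ahr differed by 0.18 ± 0.18 and was not called, and CAR (Nr1i3) was not read, since its probe set is shared with Tomm40l. Of 19 other regulators 10 were lower and 1 higher. The lower ones with the smallest P were Ghr, the growth hormone receptor (-1.88 ± 0.12), Nr3c1, the glucocorticoid receptor (-0.69 ± 0.06), and Nr1h4, the bile acid receptor FXR (-1.12 ± 0.11). The single higher one, named after its value was seen, was Nfe2l2, the factor NRF2 of the oxidative stress response (1.10 ± 0.17). Of 14 genes of electron transfer and heme supply 9 were lower, among them Cyb5a, the cytochrome b5 that passes electrons to P450 enzymes (-0.93 ± 0.07), Alas1, the first and rate-limiting enzyme of heme synthesis (-1.53 ± 0.15), and Fech, the last one (-0.75 ± 0.08). Hmox1, the heme oxygenase that breaks heme down, was the only one higher (1.80 ± 0.34), and it too was named after its value was seen. Of 17 other phase I enzymes 13 were lower, led by Ephx2, the soluble epoxide hydrolase that opens the epoxides made by Cyp2c and Cyp2j enzymes (-2.32 ± 0.15), Adh4 (-2.91 ± 0.25) and Maob (-1.62 ± 0.16), and only Maoa, a monoamine oxidase, was higher (1.76 ± 0.20).

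**Figure D3:**
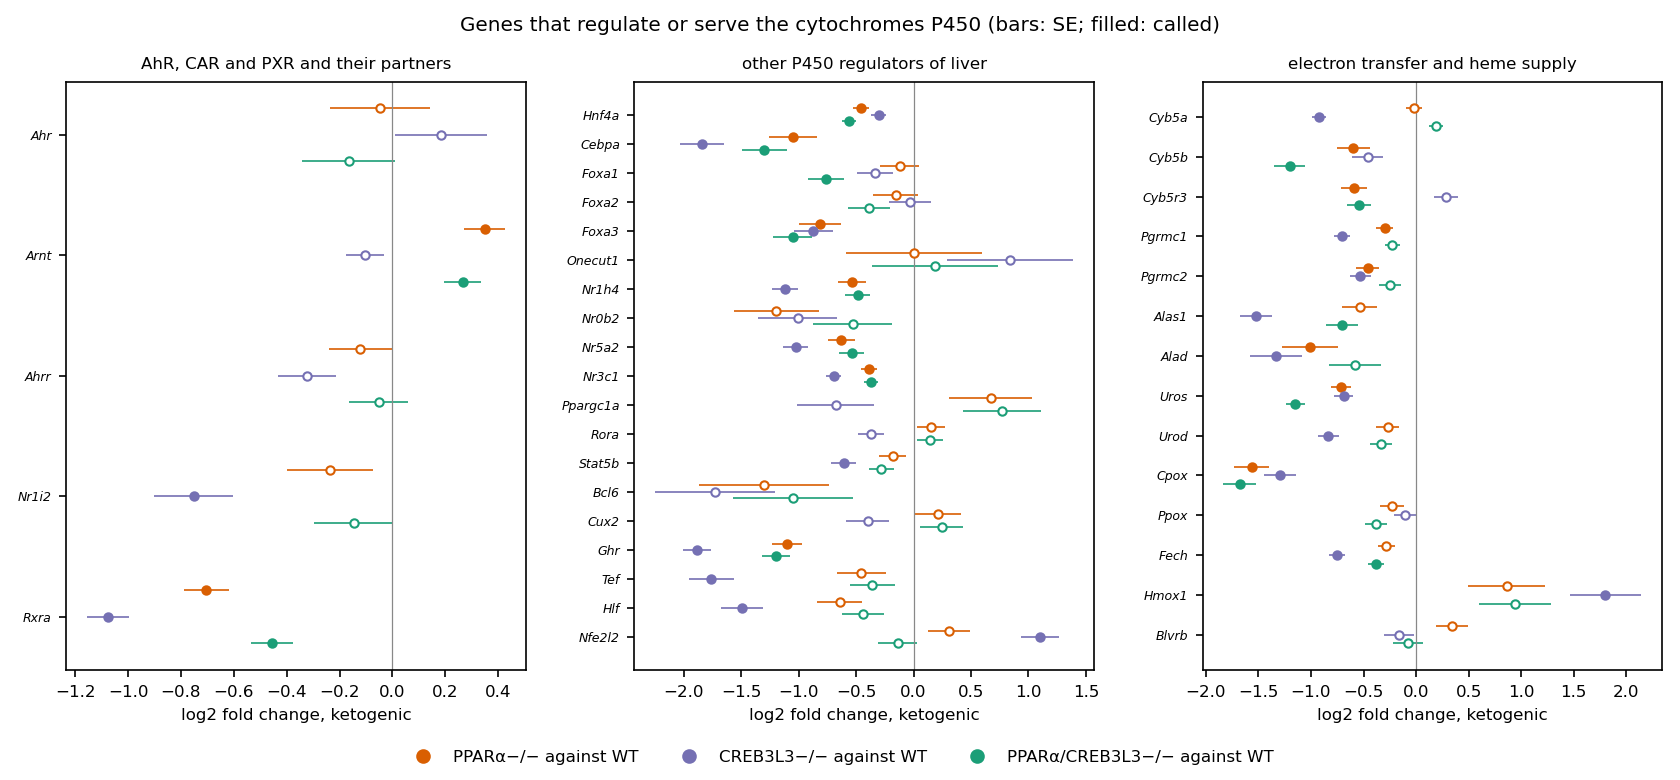
Log2 fold change (x axis, with SE bars) of each measured gene of 3 lists in ketogenic PPARα−/−, CREB3L3−/− and PPARα/CREB3L3−/− livers against ketogenic WT livers, filled where called. Most called points lie left of 0, and Hmox1 and Nfe2l2 of the CREB3L3−/− livers lie right of it.

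The fall was much smaller in mice that lacked PPARα as well. Against ketogenic CREB3L3−/− livers, 26 members were higher in ketogenic PPARα/CREB3L3−/− livers and 0 lower, where 27.8% of all genes were called, 10.6% higher and 17.2% lower. Cyp2c29 was at 11.73, 11.99, 11.00 and 11.82 in PPARα/CREB3L3−/− livers, against the 5.70 to 8.91 of CREB3L3−/− livers (log2 fold change 5.06 ± 0.41, limma, adjusted p = 2.78e-10). Cyp3a25 was at 12.13, 12.01, 11.93 and 11.90, against 5.41 to 9.41 in CREB3L3−/− livers (4.91 ± 0.42), and Cyp2e1 at 12.68, 12.60, 12.52 and 12.88, against 8.44 to 12.13 (2.77 ± 0.39). In all 3 genes the PPARα/CREB3L3−/− livers lay above every CREB3L3−/− liver, as in 23 of the 26, a description of genes called on these same livers. The interaction, which is the difference of PPARα/CREB3L3−/− minus PPARα−/− livers less that of CREB3L3−/− minus WT livers, was called above 0 for 26 members and below 0 for 0, where 21.2% of all genes were called, 8.2% above 0, and its median was 1.44 over the members and 0.04 over all genes. Cyp1a1 was at -1.08 with a 95% interval of -1.88 to -0.28 and did not pass the criteria (limma, adjusted p = 0.0427). The interaction was largest for Cyp2c38 (5.85 ± 0.97), Cyp2c54 (5.75 ± 0.67) and Cyp2c29 (5.68 ± 0.61, limma, adjusted p = 8.12e-08). These values share the CREB3L3−/− livers with the comparison above and are not a second measurement of it. An interaction above 0 does not by itself mean a smaller fall. Cyp2j5 (2.08 ± 0.36) and Cyp2c23 (2.39 ± 0.44) had similar means in CREB3L3−/− (9.34 and 9.32) and PPARα/CREB3L3−/− livers (9.33 and 9.52). Their PPARα−/− means were low as well (9.30 and 9.38), against 11.39 and 11.57 in WT livers.

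Set against PPARα−/− livers on the same diet, PPARα/CREB3L3−/− livers had 2 members higher and 0 lower (3.44% of all genes called, 1.07% higher). Cyp3a13 was at 10.30, 10.35, 10.40 and 10.41 in PPARα/CREB3L3−/− livers, against 9.68, 9.42 and 9.90 in PPARα−/− livers (0.70 ± 0.15, limma, adjusted p = 0.00866). Cyp2j9 was at 6.69, 6.76, 6.76 and 6.76, against 6.32, 5.59 and 5.67 (0.88 ± 0.21, limma, adjusted p = 0.0209). Neither gene's groups overlapped, but 0 members were called without PPARα−/− replicate 2, where Cyp3a13 was at 0.58, and 1 without replicate 3. For Cyp2c29 the difference was 0.31 with a 95% interval of -0.61 to 1.23, and for Cyp3a11 0.68 with an interval of -0.10 to 1.47, so that differences of over 2-fold are inside both. The intervals use the spread shared by all 8 groups, including the ketogenic CREB3L3−/− livers (Cyp3a11 SD 1.41). The Cyp3a11 groups did not overlap, at 11.51 to 11.82 in PPARα/CREB3L3−/− livers (SD 0.14) and 10.86 to 11.09 in PPARα−/− livers (SD 0.12). Those of Cyp2c29 did overlap.

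A smaller set of members was lower in ketogenic livers of every knockout. These were 7 of 53 in PPARα−/− livers, with 2 higher, and 8 of 53 in PPARα/CREB3L3−/− livers, with 3 higher. Counted in either direction, 17% of the members were called in PPARα−/− livers, against 13.6% of all genes. In PPARα/CREB3L3−/− livers it was 20.8%, against 17.7%. Both shares of the members were thus near those of all genes. The 3 comparisons share their WT livers, so the values are set side by side. Cyp2f2 was at 10.43, 9.93 and 9.97 in PPARα−/− livers and 10.88, 10.26, 9.72 and 10.02 in PPARα/CREB3L3−/− livers, against the 12.32 to 12.72 of WT livers. The log2 fold changes were -2.38 ± 0.19 in PPARα−/− (limma, adjusted p = 5.31e-10) and -2.27 ± 0.18 in PPARα/CREB3L3−/− livers (adjusted p = 1.56e-10), next to the -3.25 of CREB3L3−/− livers. Cyp2d13 was at 7.63, 8.24 and 7.30 in PPARα−/− and 8.09, 8.03, 6.81 and 7.64 in PPARα/CREB3L3−/− livers, against 10.27 to 10.70 in WT livers (-2.71 ± 0.35 and -2.79 ± 0.32). Both genes were thus below the WT range in each knockout liver on this diet.

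Cyp2j5 and Cyp2c23 belonged to the same set. Cyp2j5 was at 9.14, 9.51 and 9.25 in PPARα−/− livers and 9.35, 9.28, 9.02 and 9.64 in PPARα/CREB3L3−/− livers, against 11.29 to 11.54 in WT livers. Its log2 fold changes were -2.09 ± 0.26 (limma, adjusted p = 1.17e-06) and -2.06 ± 0.25 (adjusted p = 2.86e-07), beside -2.05 ± 0.25 in CREB3L3−/− livers. Cyp2c23, an arachidonic acid epoxygenase, was at 9.78, 9.16 and 9.19 in PPARα−/− and 9.63, 9.58, 9.06 and 9.80 in PPARα/CREB3L3−/− livers, against 11.53, 11.73, 11.52 and 11.50 in WT livers (-2.20 ± 0.33 and -2.05 ± 0.30, beside -2.25 ± 0.30 in CREB3L3−/− livers). All knockout livers lay below all WT livers for both genes. Cyp2c29, an epoxygenase too, was not called in either group (-0.62 ± 0.45 and -0.31 ± 0.41). Cyp2d40 was at 6.51, 6.15 and 5.69 in PPARα−/− and 5.70, 5.79, 5.75 and 6.20 in PPARα/CREB3L3−/− livers, against 8.01 to 8.59 in WT livers (-2.19 ± 0.37 and -2.45 ± 0.34). Cyp2j9 (-1.69 and -0.81) and Cyp2c67 (-1.38 and -1.45) complete the 7 of PPARα−/− livers, and Cyp2u1 (-0.80 ± 0.21) the 8 of PPARα/CREB3L3−/− livers. The Cyp2u1 call was lost without PPARα/CREB3L3−/− replicate 1, 3 or 4 or WT replicate 2, 3 or 4, at log2 fold changes of -0.84 to -0.66.

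**Figure D4:**
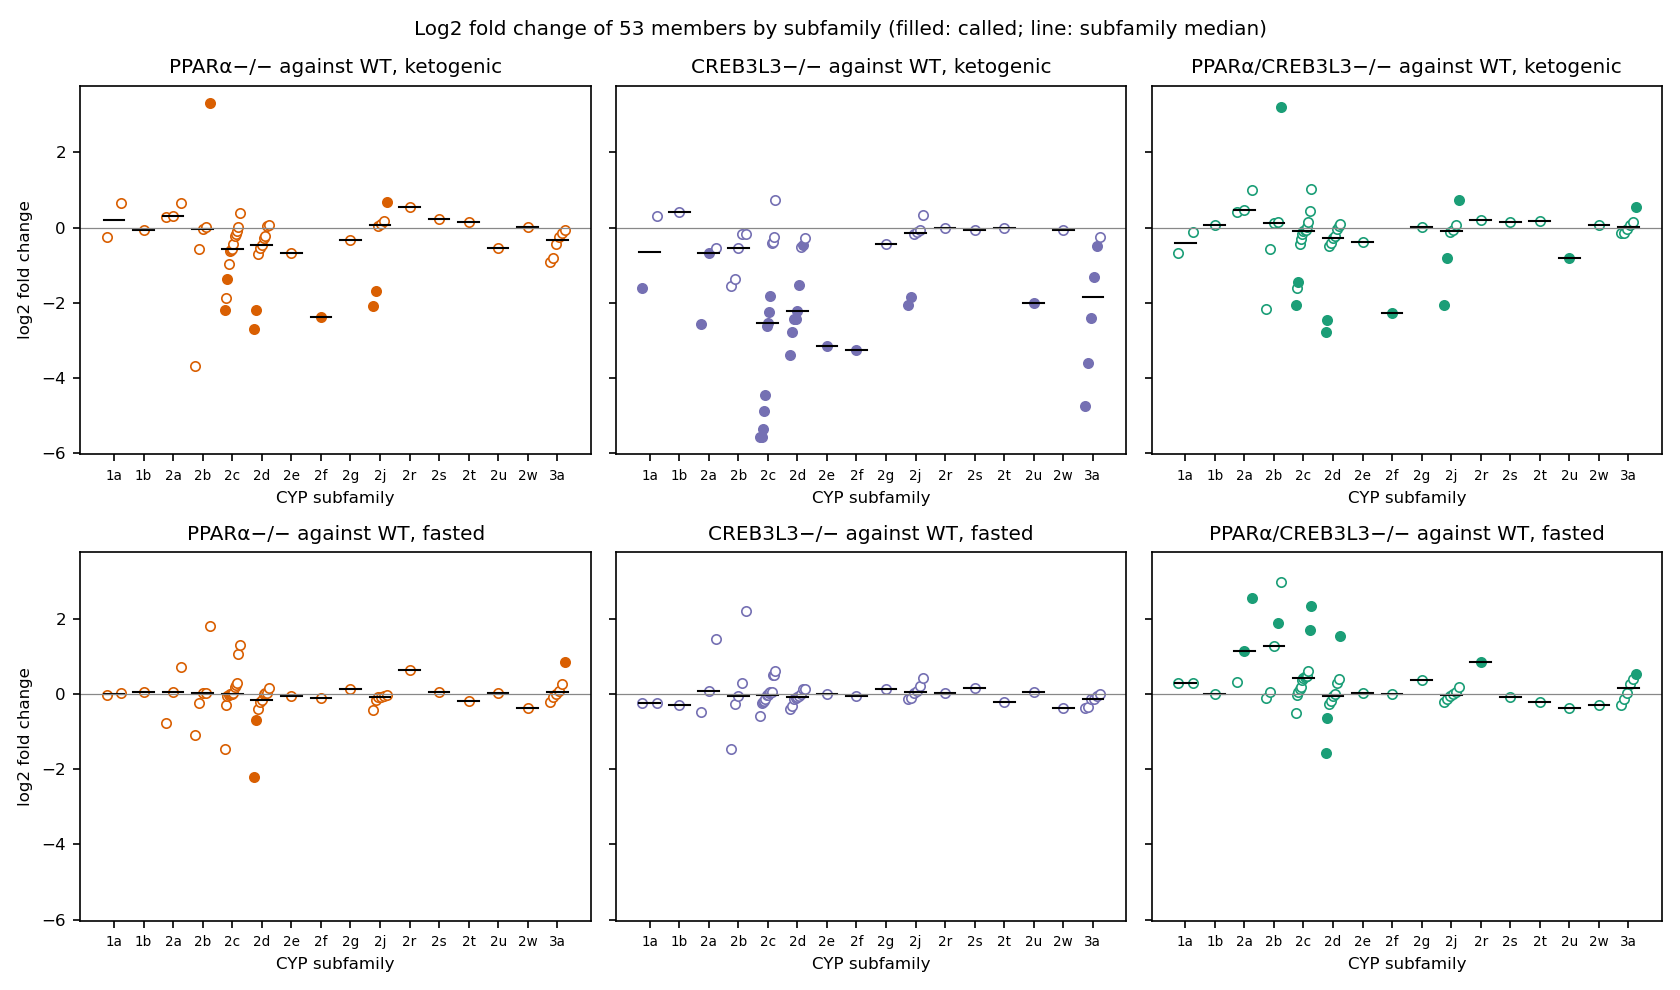
Log2 fold change (y axis) of the 53 members against WT of the same regimen, by CYP subfamily (x axis), with ketogenic livers above and fasted livers below, filled points for called genes and lines for subfamily medians. In ketogenic CREB3L3−/− livers the medians of Cyp2c, Cyp2d and Cyp3a lie at -2.55, -2.21 and -1.86, and in ketogenic PPARα/CREB3L3−/− livers at -0.10, -0.28 and 0.02.

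By subfamily, the median log2 difference of the 13 Cyp2c genes on the ketogenic diet was -0.57 in PPARα−/− livers, -2.55 in CREB3L3−/− livers and -0.10 in PPARα/CREB3L3−/− livers. That of the 9 Cyp2d genes was -0.47, -2.21 and -0.28 in the same order, and that of the 6 Cyp3a genes -0.34, -1.86 and 0.02. The 3 Cyp2a genes had medians of 0.31, -0.68 and 0.47. These are medians over genes, many of them neighbours in a cluster, and no test was made over them. In PPARα−/− livers 7 of 19 other regulators, 7 of 14 genes of electron transfer and heme supply and 8 of 17 other phase I enzymes were lower, and in PPARα/CREB3L3−/− livers 8, 6 and 9. Higher ones were found among the other phase I enzymes, Maoa in both groups (2.62 ± 0.21 and 1.88 ± 0.20) and Fmo2 in PPARα/CREB3L3−/− livers (1.48 ± 0.35), both named after their values were seen. Ghr was at -1.10 ± 0.13 in PPARα−/− and -1.20 ± 0.12 in PPARα/CREB3L3−/− livers, and Hnf4a at -0.46 ± 0.07 and -0.56 ± 0.06 (limma, adjusted p = 1.11e-05 and 9.87e-08). Male-biased liver genes outside the members were lower in 6 of 11 cases in PPARα−/− livers, 8 in CREB3L3−/− livers and 9 in PPARα/CREB3L3−/− livers. Female-biased ones outside the members averaged 4.49 to 4.59, 4.06 to 4.60 and 4.44 to 4.75 in the same order, against 4.86 to 5.32 in WT livers. In each of these groups 4 or 5 of the female-biased genes had means below the highest array median. Macrophage markers averaged 6.74 to 7.07 in PPARα−/− and 6.74 to 7.22 in PPARα/CREB3L3−/− livers, against 7.11 to 7.84 in WT livers, with 9 of 16 lower and 1 higher in PPARα−/− and 6 lower and 1 higher in PPARα/CREB3L3−/− livers. Hepatocyte markers averaged 12.33 to 12.39 in PPARα−/− and 12.44 to 12.59 in PPARα/CREB3L3−/− livers, against 12.61 to 12.71 in WT livers, with 5 and 4 of 12 lower. Stellate cell markers averaged 6.04 to 6.46 and 6.14 to 6.86, against 6.83 to 7.02 in WT livers, with 5 and 4 of 12 lower. Lower in the same 2 groups were also 6 and 8 of 13 pericentral genes, 4 and 4 of 10 periportal ones (1 higher in PPARα/CREB3L3−/− livers), 2 and 8 of 12 sinusoidal endothelium markers (1 higher in PPARα/CREB3L3−/− livers) and 1 and 3 of 12 mitosis markers, with 0 mitosis markers higher. Of the 12 mitosis markers, 10 in PPARα−/− and 12 in PPARα/CREB3L3−/− livers had means below the highest array median, against 5 in WT livers. The part of these gene lists in the P450 differences was not tested.

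Cyp2b10, the classical target of CAR that phenobarbital induces, went the other way. On the ketogenic diet it was at 10.15, 11.28 and 11.80 in PPARα−/− livers and 10.72, 11.37, 10.17 and 11.58 in PPARα/CREB3L3−/− livers, against 7.66, 6.47, 8.78 and 8.11 in WT livers. All 7 livers without PPARα lay above all WT livers. The signal was 9.99-fold higher in PPARα−/− livers (log2 3.32 ± 0.68, limma, adjusted p = 0.00069) and 9.23-fold higher in PPARα/CREB3L3−/− livers (3.21 ± 0.62, adjusted p = 0.000317). The call in PPARα−/− livers missed the P limit when the ketogenic arrays were fitted alone, at the same log2 fold change of 3.32 (limma, unadjusted P = 0.00129, adjusted p = 0.0142). In ketogenic CREB3L3−/− livers Cyp2b10 was at 9.05, 4.80, 5.02 and 5.95, with replicate 1 above all WT livers and the other three below them, and it was not called. Nqo1, an NRF2 and AhR target outside the P450 genes, was higher in all 3 ketogenic knockouts, by 2.29 ± 0.20 in PPARα−/− livers, 1.74 ± 0.19 in CREB3L3−/− livers and 2.15 ± 0.19 in PPARα/CREB3L3−/− livers.

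Cyp2j6 was the other member higher in both groups without PPARα. It was at 8.69, 8.74 and 8.87 in PPARα−/− and 8.86, 8.97, 8.57 and 8.87 in PPARα/CREB3L3−/− livers, against 8.12, 8.00, 8.36 and 7.86 in WT livers, with no overlap. The log2 fold changes were 0.68 ± 0.12 (limma, adjusted p = 0.000205) and 0.73 ± 0.12 (adjusted p = 2.18e-05). Cyp3a13 was higher in PPARα/CREB3L3−/− livers only among the ketogenic comparisons with WT, at 10.30 to 10.41 against 9.74 to 9.93 in WT livers (0.54 ± 0.14, limma, adjusted p = 0.00368). This call was lost without PPARα/CREB3L3−/− replicate 2, 3 or 4 or WT replicate 1, 2 or 3, at 0.52 to 0.55. Cyp2b9, a female-biased gene beside Cyp2b10, varied widely within groups: it was at 5.32, 3.94 and 4.45 in PPARα−/− livers, against 8.02, 6.72, 11.14 and 7.16 in WT livers. The groups did not overlap, but the log2 difference of -3.69 ± 1.11 did not pass the criteria (limma, adjusted p = 0.02). The other Cyp2b genes, Cyp2b13, Cyp2b19 and Cyp2b23, were dim.

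In CREB3L3−/− mice the members differed far less after the fast than on the ketogenic diet. This did not hold for PPARα/CREB3L3−/− livers, with 18.9% of members called against WT after the fast and 20.8% on the ketogenic diet (9.76% and 17.7% of all genes). Fasted CREB3L3−/− livers had 0 members called against WT by limma, where 1.54% of all genes were called. An unadjusted P of 0.05 was passed by 9 members, 5 higher and 4 lower, a limit at which the share of all genes was not counted. This fit shares its spread with the widely spread ketogenic CREB3L3−/− livers, and 2 members were called with the fasted arrays fitted alone. Some members did not overlap without being called, such as Cyp1a2 (-0.23 ± 0.29) and Cyp2a22 (1.47 ± 0.51). The median difference was -0.05 over the members and 0.00 over all genes. Cyp2c29 was at 12.00, 12.09, 12.05 and 12.36 in fasted CREB3L3−/− livers, against 12.06, 12.26, 12.17 and 12.55 in WT livers, and Cyp2e1 at 13.13, 13.09, 13.08 and 12.98, against 13.05, 13.12, 13.11 and 13.03. Both pairs of ranges overlapped. The 95% interval of the difference ran between -0.99 and 0.72 for Cyp2c29 and between -0.81 and 0.79 for Cyp2e1. The effect of CREB3L3 deletion was called lower on the ketogenic diet than after the fast for 25 members and higher for 0, tested as the difference of the 2 effects (18.9% of all genes called, 8.3% lower), with a median of -1.15 over the members and -0.03 over all genes.

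PPARα−/− livers had 1 member higher and 2 lower after the fast, and 5.7% of all genes were called. Cyp3a13 was at 11.05, 10.70 and 11.02 in PPARα−/− livers, against 9.85, 10.22, 10.44 and 9.76 in WT livers (0.85 ± 0.15, limma, adjusted p = 0.000481). Cyp2d13 was at 8.61, 9.82 and 9.46, against 11.52, 11.64, 11.55 and 11.29 in WT livers (-2.20 ± 0.35, limma, adjusted p = 0.000201), and Cyp2d22 at 10.87, 10.77 and 10.98, against 11.55, 11.61, 11.68 and 11.43 (-0.70 ± 0.14, adjusted p = 0.00242). No group overlapped with its WT group in these 3 genes. Of these 3, Cyp2d13 was also lower in ketogenic PPARα−/− livers. Its fasted CREB3L3−/− livers, at 11.30, 10.78, 11.28 and 11.31, differed from WT by -0.33 ± 0.32. Cyp2b10 was at 12.31, 11.71 and 12.52 in fasted PPARα−/− livers, against 9.45, 10.59, 10.41 and 11.01 in WT livers. These groups did not overlap, but the gene was not called (1.82 ± 0.68, limma, adjusted p = 0.121). Cyp2f2, Cyp2j5 and Cyp2c23, which were lower on the ketogenic diet, differed from WT by -0.10 ± 0.19, -0.42 ± 0.26 and -0.30 ± 0.33 after the fast, and Cyp2d40 by less than 0.01 with a 95% interval of -0.76 to 0.75. For these 4 genes the effects of the 2 regimens themselves differed, by -2.27, -1.67, -1.89 and -2.19 in the order given (limma, adjusted p = 3.17e-06, 0.00482, 0.00958 and 0.0082; 4.91% of all genes called, 2 members higher and 6 lower). Between 5 and 8 members passed with 1 array left out, 5 of them without fasted PPARα−/− replicate 2 or ketogenic replicate 3; Cyp2d40 was lost in both cases (-2.10 to -1.97), and Cyp2c23 in both and without ketogenic replicate 2 (-1.80 to -1.73).

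PPARα/CREB3L3−/− livers had 8 members higher and 2 lower than WT after the fast, with 9.76% of all genes called. The higher ones came from several subfamilies. Cyp2a22 was at 8.14, 7.15, 7.36 and 9.56 in PPARα/CREB3L3−/− livers, against 5.01, 5.41, 5.58 and 6.04 in WT livers (2.54 ± 0.51, limma, adjusted p = 0.0011). Cyp2c55, which CAR and PXR activators induce, was at 6.45, 6.16, 6.04 and 7.53, against 3.99, 3.82, 4.33 and 4.71 (2.33 ± 0.39, limma, adjusted p = 0.000143). Cyp2c70 was at 11.70, 11.75, 11.52 and 11.50, against 10.12, 10.58, 9.63 and 9.33 in WT livers (1.70 ± 0.34, limma, adjusted p = 0.00099). None of these groups overlapped.

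Cyp2r1, a vitamin D 25-hydroxylase, was at 7.35, 7.55, 7.47 and 7.77 in fasted PPARα/CREB3L3−/− livers, against 6.79, 6.52, 7.00 and 6.37 in WT livers (0.86 ± 0.17, limma, adjusted p = 0.000742), again without overlap. Cyp2a5, the coumarin hydroxylase, was higher by 1.15 ± 0.23 and Cyp3a13 by 0.54 ± 0.14. The remaining 2, Cyp2b13 and Cyp2d12, were dim: Cyp2b13 was at 3.25, 2.69, 3.82 and 6.63, against 2.06 to 2.33 in WT livers, and Cyp2d12 at 4.21, 3.72, 4.02 and 4.77, against 2.42 to 2.85. The Cyp2b13 call was lost without PPARα/CREB3L3−/− replicate 3 or 4 or any WT replicate, at log2 fold changes of 1.03 to 1.97, and that of Cyp3a13 without PPARα/CREB3L3−/− replicate 2 or WT replicate 1 or 4, at 0.43 to 0.46. The lower ones were Cyp2d13, at 9.90, 9.42, 9.66 and 10.77 against 11.29 to 11.64 in WT livers (-1.56 ± 0.32), and Cyp2d22 (-0.63 ± 0.13). Cyp2b10 was at 11.45, 12.30, 11.66 and 11.21, against 9.45, 10.59, 10.41 and 11.01 in WT livers, which did not overlap but was not called (1.29 ± 0.62, limma, adjusted p = 0.205). In the same fasted livers 6 of 13 acute phase proteins were higher than in WT, and of the 5 measured genes of the AhR, CAR and PXR list Ahr was higher by 0.70 and Arnt by 0.73, while Rxra was lower (-0.37). Their part in the differences of these members was not tested.

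Compared with the single knockouts after the fast, PPARα/CREB3L3−/− livers had 2 members higher than PPARα−/− livers (2.41% of all genes called, 1.19% higher) and 6 higher and 1 lower than CREB3L3−/− livers (7.59% called). Cyp2a22 was higher than in PPARα−/− livers, which were at 4.41, 5.43 and 4.38 (3.31 ± 0.55), and the fasted CREB3L3−/− livers, at 7.20, 6.91, 6.29 and 7.53, overlapped with the PPARα/CREB3L3−/− range. Cyp2c70, Cyp2r1 and Cyp2a5 were not called against PPARα−/− livers (0.39 ± 0.36, 0.22 ± 0.18 and 0.44 ± 0.25). In PPARα−/− livers alone they differed from WT by 1.31 ± 0.36, 0.65 ± 0.18 and 0.72 ± 0.25, also without being called. Against CREB3L3−/− livers, Cyp2b10 was higher by 2.76 ± 0.62, Cyp2c55 by 2.31 ± 0.39 and Cyp2a5 by 1.63 ± 0.23, and Cyp2d13 was lower (-1.23 ± 0.32), a call lost without CREB3L3−/− replicate 1, 3 or 4 or PPARα/CREB3L3−/− replicate 1, 2 or 3 (-1.22 to -1.06). Without PPARα/CREB3L3−/− replicate 2, 4 members rather than 2 were called against PPARα−/− livers. The interaction after the fast passed for 1 member, the dim Cyp2d12 (1.49, 0.834% of all genes called). The PPARα/CREB3L3 deletion had a different effect in the 2 regimens for 7 members, 1 higher and 6 lower on the ketogenic diet (9.76% of all genes called).

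Within WT, ketogenic livers had 3 members lower than fasted livers and 0 higher, and 5.23% of all genes were called, 1.63% lower. Cyp2b10 was at 7.66, 6.47, 8.78 and 8.11 in ketogenic WT livers, against 9.45, 10.59, 10.41 and 11.01 in fasted WT livers (-2.61 ± 0.62, limma, adjusted p = 0.0103). Cyp2d22 (-0.73 ± 0.13, limma, adjusted p = 0.000891) and Cyp2j6 (-0.70 ± 0.12, adjusted p = 0.000433) were also lower. None of the 3 overlapped between the regimens, and the Cyp2b10 call was lost without fasted WT replicate 2 or 4 or ketogenic WT replicate 2 (-2.53 to -2.18). Most members kept similar levels in WT: Cyp2e1 differed by -0.02 ± 0.39, Cyp3a11 by -0.12 ± 0.35 and Cyp2c29 by -0.31 ± 0.41.

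Within the knockouts the regimen made more difference. Ketogenic CREB3L3−/− livers had 30 members lower than fasted CREB3L3−/− livers and 0 higher (32.3% of all genes called, 13% lower), with a median of -1.57 over the members. Ketogenic PPARα−/− livers had 7 lower and 1 higher than fasted ones (11.4% called), and ketogenic PPARα/CREB3L3−/− livers 11 lower and 0 higher (17.4% called, 9.53% lower). The 1 higher was Cyp2a22, at 7.11, 7.98 and 7.80 in ketogenic PPARα−/− livers, against 4.41, 5.43 and 4.38 in fasted ones (2.89 ± 0.59, limma, adjusted p = 0.000777). Cyp2a22 had ketogenic group means of 7.63 (PPARα−/−), 4.74 (CREB3L3−/−), 8.31 (PPARα/CREB3L3−/−) and 7.32 (WT), and fasted ones of 4.74, 6.98, 8.05 and 5.51 in the same order. Cyp2c70 was lower in ketogenic than in fasted PPARα−/− livers (-2.22 ± 0.39) and PPARα/CREB3L3−/− livers (-1.88 ± 0.34), whereas it differed by -0.12 ± 0.34 in CREB3L3−/− and -0.34 ± 0.34 in WT livers.

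The same chromosome held members with different patterns. Cyp2a5, Cyp2a12, Cyp2a22, the 5 Cyp2b genes, Cyp2f2, Cyp2g1, Cyp2s1 and Cyp2t4 are neighbours on chromosome 7. In ketogenic PPARα−/− livers Cyp2b10 was higher (3.32), Cyp2f2 was lower (-2.38) and Cyp2a5 differed by 0.66 ± 0.25. On chromosome 19, Cyp2c38 and Cyp2c70 differed from WT by -5.58 and 0.74 in ketogenic CREB3L3−/− livers. Cyp2g1, Cyp2s1, Cyp2t4 and Cyp2w1, all dim, were called in none of the 6 comparisons with WT.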

How the data were processed

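RNA of 30 livers in 8 groups was measured on Affymetrix Mouse Gene 1.1 ST arrays. The authors deposited log2 intensities, normalized together by robust multi-array analysis (RMA) with AffyPLM. Software versions: not given in the sources used here. A remapped probe annotation and an Ambion kit are named in the methods, whereas the identifiers are the manufacturer's transcript clusters and the labels name the Affymetrix sense target assay. No scan batch is given in the sources used here, and 0 value columns were left unused. Precision is limited by the 3 or 4 arrays per group.

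Genes were named through GEO's platform annotation, in which, of 35556 probe sets, 21218 carried 1 symbol (18820 genes), 1881 several and 12457 none. The deposited values were fitted with 8 group means in limma 3.58.1 (lmFit, eBayes with intensity trend, 22 residual and 3.47 prior degrees of freedom; R 4.3.3, package data.table, version 1.17.8) over all probe sets, with Benjamini-Hochberg adjustment over 35556. Calls required an unadjusted P under 0.001 and more than a 1.2-fold difference (the P limit from the methods, the fold limit from the study's figure legends). The labels do not say that the livers of a group came from separate cages or litters. The p-values rest on the spread between livers within groups, shared over all 8 groups, and not on that of the compared groups alone. The fit was tested on simulated data with known changes, in which each probe set had the same spread in every group. That test therefore does not cover the wider spread of the ketogenic CREB3L3−/− livers. Replicate numbers shared between groups did not pair the livers. Correlations of deviations were -0.111 to 0.121 for 42 same-numbered pairs and -0.15 to 0.167 for 126 other pairs.

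Values are given liver by liver for members named by rule: the 5 largest called, non-overlapping changes each way in each knockout-to-WT comparison, the 3 largest each way in the interactions and the WT diet comparison, the member with the lowest F test P per subfamily, and up to 3 genes by lowest P per other list. Cyp2a5, Cyp2b9, Cyp2c39, Cyp2c50, Cyp2c67, Cyp2c68, Cyp2d34, Cyp2j9, Cyp3a11, Cyp3a57 and Cyp1a1 were named after their values were seen. The members and the 21 gene lists were chosen with earlier results of these data known. Promoters were read from RefSeq for GRCm38.p6 (45 of 53 members matched by symbol) and compared without gaps at shifts of up to 30 bases. Figures were drawn with Python 3.11.15, pandas 2.3.3 and matplotlib 3.10.9. Alternatives were the intensity-based moderated test of the methods (IBMT), no trend, median centring, repeated quantile normalization, no dim probe sets, arrays of 1 regimen alone, other thresholds, the replicate number as a block, and each array left out.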

Additional observations from a re-analysis of the deposited data

Results flagged for a closer look

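Among 168 groups of 4 livers tested over the named members, 14 had 1 liver far from the other three, where chance gives about 5 percent. In ketogenic CREB3L3−/− livers these were Cyp2c29 (replicate 1, 8.91, above the others) and Cyp2c38 (replicate 1, 6.52, above) and the dim Cyp2s1 (replicate 2, 4.45, above). In ketogenic PPARα/CREB3L3−/− livers it was Cyp2d40 (replicate 4, 6.20, above), and in fasted ones Cyp3a13 (replicate 2, 10.91, above). In fasted CREB3L3−/− livers they were Cyp2b10 (replicate 4, 9.50, above), Cyp2d13 (replicate 2, 10.78, below), Cyp3a25 (replicate 4, 11.93, above) and the dim Cyp2w1 (replicate 2, 2.22, below). In ketogenic WT livers they were Cyp2c23 (replicate 2, 11.73, above), Cyp2c38 (replicate 1, 8.97, below) and Cyp2c70 (replicate 3, 10.54, above), and in fasted WT livers Cyp2c54 (replicate 1, 10.76, below) and Cyp2d40 (replicate 4, 8.38, above).

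The effect of each deletion was compared between the ketogenic diet and the fast as a term of the limma fit. It differed for 8 members in PPARα−/− mice, 25 in CREB3L3−/− mice and 7 in PPARα/CREB3L3−/− mice. In PPARα−/− mice the log2 difference of the effects, ketogenic minus fasted, was -1.89 for Cyp2c23, -2.19 for Cyp2d40, -2.27 for Cyp2f2, -1.67 for Cyp2j5 and -1.01 for Cyp3a13, and 0.77 for Cyp2d22 and 0.84 for Cyp2j6. In CREB3L3−/− mice it was -5.24 for Cyp2c29, -4.99 for Cyp2c37, -5.56 for Cyp2c38, -4.68 for Cyp2c54, -2.29 for Cyp2c23 and -4.43 for Cyp3a25. There it was also -4.05 for Cyp2a22, -3.07 for Cyp2d13, -1.15 for Cyp2d22, -2.90 for Cyp2d40, -3.15 for Cyp2e1, -3.21 for Cyp2f2, -2.13 for Cyp2j5, -2.06 for Cyp2u1 and -1.31 for Cyp3a13. In PPARα/CREB3L3−/− mice it was -2.19 for Cyp2c23, -1.77 for the dim Cyp2d12, -2.86 for Cyp2d40, -2.28 for Cyp2f2 and -1.92 for Cyp2j5, and 0.73 for Cyp2d22. The 3 sets share the WT livers of both regimens. The Cyp2d22 call was lost without any of 9 single arrays in PPARα−/− (0.70 to 0.78) and any of 7 in PPARα/CREB3L3−/− mice (0.68 to 0.73).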

How the results depend on the processing

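No named result changed direction under any alternative. Only median centring, repeated quantile normalization, the replicate block and a left-out array could change one, since the other alternatives keep the group means. Over the named members, 115 of 146 called results kept their call throughout, while 32 of 1241 values at other settings and 81 of 1463 with 1 array left out missed the threshold. The number of members called lower in ketogenic CREB3L3−/− against WT livers stayed between 26 and 31 over 10 other settings, with 1 higher at an adjusted p under 0.05. With arrays of 1 regimen fitted alone, fasted livers gave 2 calls for CREB3L3−/− against WT (0 over all arrays), 5 for PPARα−/− against WT (3), 12 for PPARα/CREB3L3−/− against CREB3L3−/− (7), 5 for PPARα/CREB3L3−/− against PPARα−/− (2) and 3 for the interaction (1). Without dim probe sets, and without the members near background (an alternative chosen after seeing the data), fasted PPARα/CREB3L3−/− against PPARα−/− livers gave 1 call and the interaction 0. With a fold change beyond 2, calls numbered 7 for ketogenic PPARα/CREB3L3−/− against WT (11), 0 for ketogenic PPARα/CREB3L3−/− against PPARα−/− (2), 1 for fasted PPARα−/− against WT (3) and 1 for the diet in WT (3). With an adjusted p under 0.05 and no fold criterion, calls numbered 12 for the regimen difference of the PPARα/CREB3L3−/− effect (7), 5 for fasted PPARα−/− against WT and 5 for the diet in WT. The causes of these changes were not tested, except that a higher fold threshold or fewer members can only remove calls. A fit of the fasted arrays alone also leaves out the widely spread ketogenic CREB3L3−/− livers.

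With 1 array left out, calls ranged between 5 and 8 for the regimen difference of the PPARα−/− effect, 2 and 4 for fasted and 0 and 2 for ketogenic PPARα/CREB3L3−/− against PPARα−/− livers, 8 and 10 for ketogenic PPARα/CREB3L3−/− against WT, and 23 and 28 for ketogenic PPARα/CREB3L3−/− against CREB3L3−/− livers. With the replicate number as a block, though the numbers did not pair the livers, calls numbered 25 for ketogenic PPARα/CREB3L3−/− against CREB3L3−/− (26), 25 for the ketogenic interaction (26), 10 for ketogenic PPARα/CREB3L3−/− against WT (11), 3 for fasted PPARα/CREB3L3−/− against PPARα−/− (2), 9 for the regimen difference of the PPARα/CREB3L3−/− effect (7) and 4 for the diet in WT (3), and the other counts were equal. For the 17 dim members, a signal near the array median limits what a difference can show.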
